A study of Mus musculus with 34 samples.

Results

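The replication-dependent histone genes of the mouse were followed in liver with and without the histone methyltransferase gene Setd8 in hepatocytes. They were taken as every gene whose symbol begins with Hist1h, Hist2h, Hist3h or Hist4h, which gave 70 genes in the GENCODE M21 annotation: 6 for the linker histone H1, 20 for H2A, 19 for H2B, 12 for H3 and 13 for H4. Of these, 56 lie in the Hist1 group on chromosome 13, 10 in Hist2 on chromosome 3, 3 in Hist3 on chromosome 11 and 1 in Hist4 on chromosome 6. Hist1h2aj, Hist1h2al and Hist3h2bb-ps are annotated as pseudogenes and were kept under the symbol rule. The gene tables hold 37583 gene IDs, and 57 of the 70 histone genes have a row in them. All libraries came from the livers of F1 mice (C57Bl6/CBA) aged 45 days, with the genotype Wild type (WT) or Setd8lox/lox-Alb-Cre (KO). In the KO an exon of Setd8 is floxed and the albumin promoter drives Cre, so that the deletion is directed to hepatocytes and not to the other cells of the liver. Polyadenylated mRNA was sequenced in 3 WT and 3 KO libraries. Nascent RNA was sequenced in 1 library per genotype by each of 2 methods: ethynyl uridine (EU) labelling in the living animal, at a labelled dose of 25 mg per kg for 30 min, and a run-on of 3 min with a bromouridine nucleotide in isolated nuclei (Br).

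Replication-dependent histone genes supply the histones that package newly copied DNA, and their expression is highest in S phase. Their mRNAs have no introns to splice and normally no poly(A) tail: the end is a stem-loop, cut downstream with the help of the U7 snRNP and bound by SLBP. Adult liver is mostly non-dividing, and polyadenylated forms of some histone mRNAs are known in differentiated cells. Setd8 (Kmt5a) places a single methyl group on lysine 20 of histone H4.

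The stem-loop is the sequence that sets these genes apart from other protein-coding genes. A 16-base stem-loop word (GGNNCTT, then any base, T and any base, then AGNNCC) was found in annotated transcripts of 46 of the 70 histone genes and of 0.537% of the 21961 other protein-coding genes. Some genes without a match have short annotated transcripts, such as Hist1h4k (312 bases), Hist1h2bl (381) and Hist1h3h (411). Their annotated ends may stop before the stem-loop, so no match does not show that a gene lacks it. The 12 stem-loops below belong to genes whose values are described later; the stem-loop is in capitals, with its neighbours in lower case, on the transcript strand from GENCODE M21.
Hist1h1c: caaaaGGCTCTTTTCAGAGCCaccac
Hist1h1d: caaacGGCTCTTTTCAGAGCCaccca
Hist1h1e: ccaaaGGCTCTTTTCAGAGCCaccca
Hist1h2bf: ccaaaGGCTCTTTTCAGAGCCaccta
Hist1h2bb: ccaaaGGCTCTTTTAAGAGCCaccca
Hist1h2bj: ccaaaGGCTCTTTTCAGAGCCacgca
Hist1h3e: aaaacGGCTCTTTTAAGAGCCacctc
Hist1h4b: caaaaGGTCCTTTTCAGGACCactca
Hist1h4c: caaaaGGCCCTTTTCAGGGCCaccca
Hist1h4d: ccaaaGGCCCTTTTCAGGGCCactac
Hist1h4h: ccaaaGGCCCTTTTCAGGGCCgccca
Hist2h4: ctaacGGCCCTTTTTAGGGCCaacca
The word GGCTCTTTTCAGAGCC was held by 26 genes, of the classes H1, H2A, H2B and H3. The 12 H4 genes with a match all carried other words, most often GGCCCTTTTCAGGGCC (7 genes). In 23 of the 46 genes an annotated transcript ran over 100 bases past the stem-loop, Hist1h1c, Hist1h1d and Hist1h1e among them.

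The 6 H1 promoters below are shown because Hist1h1c was the histone gene called higher in KO mRNA and because the H1 genes differed among themselves in the run-on. They run from position -130 to -21 from the transcript start (RefSeq, GRCm38.p6), with AAACACA and CCAAT, on either strand, in capitals.
Hist1h1a (chr13:23763538-23763647, plus strand): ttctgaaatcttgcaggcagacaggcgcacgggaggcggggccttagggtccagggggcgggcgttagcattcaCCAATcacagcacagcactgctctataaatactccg
Hist1h1b (chr13:21780646-21780755, minus strand): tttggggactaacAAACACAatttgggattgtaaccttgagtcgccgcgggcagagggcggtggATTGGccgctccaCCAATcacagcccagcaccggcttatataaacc
Hist1h1c (chr13:23738677-23738786, plus strand): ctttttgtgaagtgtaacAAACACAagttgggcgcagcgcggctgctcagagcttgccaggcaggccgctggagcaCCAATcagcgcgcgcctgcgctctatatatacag
Hist1h1d (chr13:23554902-23555011, plus strand): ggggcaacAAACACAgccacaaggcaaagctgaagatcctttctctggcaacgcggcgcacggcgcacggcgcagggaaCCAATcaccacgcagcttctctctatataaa
Hist1h1e (chr13:23622579-23622688, minus strand): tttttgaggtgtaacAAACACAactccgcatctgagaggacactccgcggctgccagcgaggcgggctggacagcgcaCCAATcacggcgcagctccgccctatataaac
Hist1h1t (chr13:23695681-23695790, plus strand): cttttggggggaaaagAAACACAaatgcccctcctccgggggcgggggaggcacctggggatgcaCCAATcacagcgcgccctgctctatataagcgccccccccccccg
AAACACA stands between positions -122 and -112 in Hist1h1b, Hist1h1c, Hist1h1d, Hist1h1e and Hist1h1t and is not found in Hist1h1a. Over the 300 bases of each promoter in the table, AAACACA or its reverse complement TGTGTTT occurred in 5 of 6 H1 promoters, in 2 of 17 H2A, in 2 of 17 H2B, in 0 of 10 H3, in 0 of 12 H4 and in 7.18% of all 32851 promoters. CCAAT or ATTGG occurred in all 50 promoters of H1, H2A, H2B and H3 genes that were searched, in 3 of 12 H4 promoters and in 37.4% of all promoters. ATTTGCAT or ATGCAAAT, the octamer word, occurred in 7 of 17 H2A and 7 of 17 H2B promoters, in 0 H1, H3 or H4 promoters and in 1.74% of all. In all, 61 histone genes matched a promoter, and 1 of them has 2 starts, giving 62 promoters.

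WT replicate 3 of the mRNA libraries stood apart from the others on the first principal component and had 20077 genes above 0, against 24497 to 26247 in the rest; results are given with and without it where it changes them. Histone genes made up a small part of the mRNA libraries and a larger part of the run-on libraries. In CPM (the part of a library's total, scaled to 1000000), the 57 genes held 69.8, 95.7 and 105 of the mRNA values in WT and 326, 290 and 203 in KO, so that the lowest KO library was above the highest WT library. H1 genes went from 25.4 ± 1.02 CPM in WT to 152 ± 61.5 in KO (SD, n = 3), which was 69.2% of the whole difference between the group means. H2B genes went from 52.7 ± 17.0 to 99.9 ± 14.7, H2A genes from 7.80 ± 4.66 to 12.6 ± 3.52, H4 genes from 3.45 ± 1.03 to 6.78 ± 3.06 and H3 genes from 0.886 ± 0.145 to 1.97 ± 0.872 (SD, n = 3). In CPM the groups did not overlap for H1, H2B and H3, and they overlapped for H2A and H4. Before this division by the library total, H1 values still stood apart, but H2B values overlapped. They were 725, 1066 and 1808 in WT and 1545, 2110 and 1998 in KO. H3 values met at 21 in WT replicate 2 and KO replicate 3. Markers of macrophages and Kupffer cells also summed higher in KO (8921 to 18366, against 6086 to 6672 in WT); their part in the histone values was not tested, and in whole liver fewer or more cells of a type cannot be told apart from less or more RNA per cell. The same genes held 105 CPM in EU WT (95% Clopper-Pearson interval 99.0 to 111) and 113 in EU KO (105 to 122). In the run-on they held 2915 CPM in WT (2856 to 2975) and 2960 in KO (2890 to 3030). For each method the intervals of WT and KO overlapped, with 1 library per genotype; they cover counting error only. Over the 23 genes with under 50% shared words and no overlapping gene, the run-on gave 1766 (1720 to 1813) in WT and 1918 (1862 to 1975) in KO, so that KO was above WT beyond counting error.

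**Figure D1:**
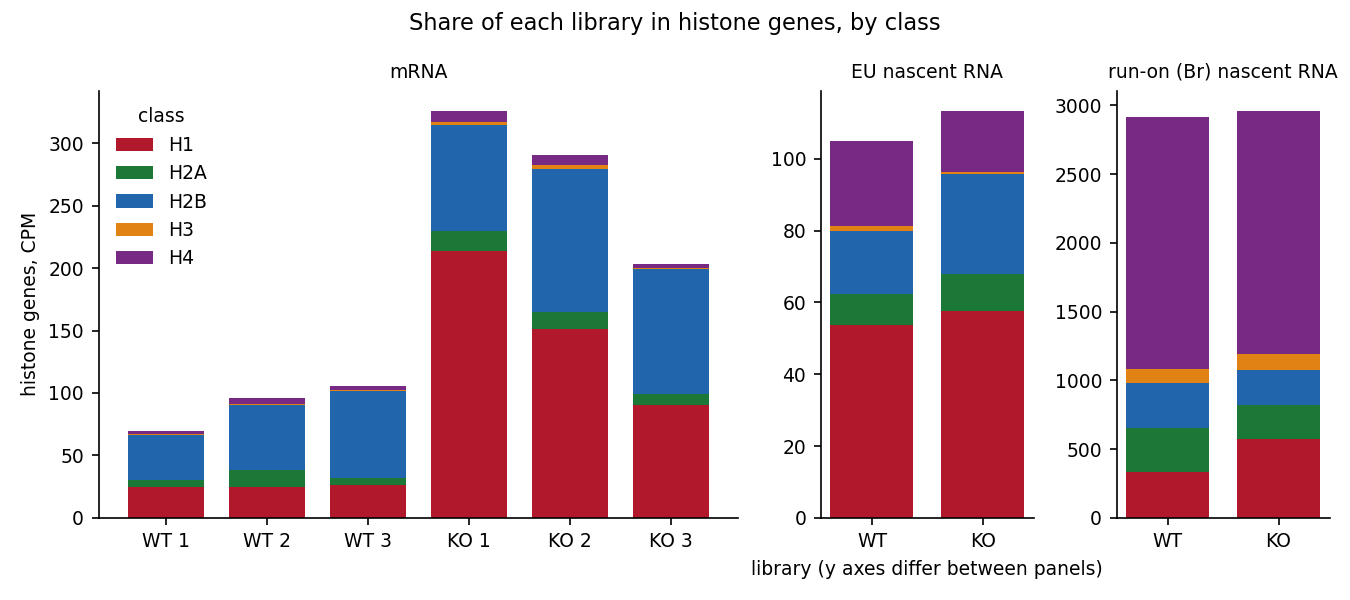
Stacked bars give the CPM of the histone genes in each library, by class, with a separate y axis for mRNA, EU and run-on (Br). KO bars reach 203 to 326 in mRNA against 69.8 to 105 in WT, mostly through H1, while H4 fills most of the run-on bars in both genotypes.

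The classes were represented very unequally in the kinds of library. H4 genes took 62.9% of the histone reads of the WT run-on but 2.72% to 4.85% of the histone mRNA of the WT libraries. H2B genes took 11.3% of the histone reads in the WT run-on and 51.8% to 66.5% of the histone mRNA. For each gene with at least 20 WT run-on reads, WT mRNA CPM was divided by WT run-on CPM, with 0.05 added to each. The ratio is taken within a gene and was not divided by gene length. The median log2 ratio was -1.24 over 13494 genes of all kinds and -6.44 over the 48 histone genes that reached this depth. H4 genes were lowest, with a median of -10.18 over 12 genes, followed by H1 (-6.66, 5 genes), H3 (-6.54, 5 genes), H2A (-6.44, 14 genes) and H2B (-4.96, 12 genes). Some genes had almost no WT mRNA, among them Hist1h4b and Hist1h4k (0 CPM) and Hist1h4c (0.058 CPM). The size of their ratios depends on the added 0.05 and on their run-on CPM. The mRNA libraries selected poly(A) RNA and the run-on used nuclear RNA, and the part of this selection in the ratio was not tested.

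Single genes departed from their class. Hist1h2bc had a ratio of -0.29, above 70.9% of all genes, from 141 run-on reads. Hist1h2ba, known as the testis H2B, had 0.06, but from 20 reads. Hist1h1c (-2.63), Hist2h2be (-2.69) and Hist1h2ab (-2.96) came next, close to the lowest quartile of all genes, which ends at -2.69. Hist1h4c, with 855 run-on reads in WT and mRNA values of 0, 2 and 2, stood at -11.29, and 0.452% of all genes were lower. Hist1h4i was the H4 gene with the highest ratio, at -5.93. The median ratio was -6.42 for 16 genes with a transcript annotated over 100 bases past the stem-loop. It was -6.36 for 17 genes that end within 100 bases of it, and -6.53 for 15 genes with no match. The genes with no match include Hist1h2bc and Hist2h2be, whose longest annotated transcripts have 1156 and 2620 bases, and Hist1h4k, with only 312. These groups also mix the classes, so the medians cannot show whether a longer end goes with the ratio.

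**Figure D2:**
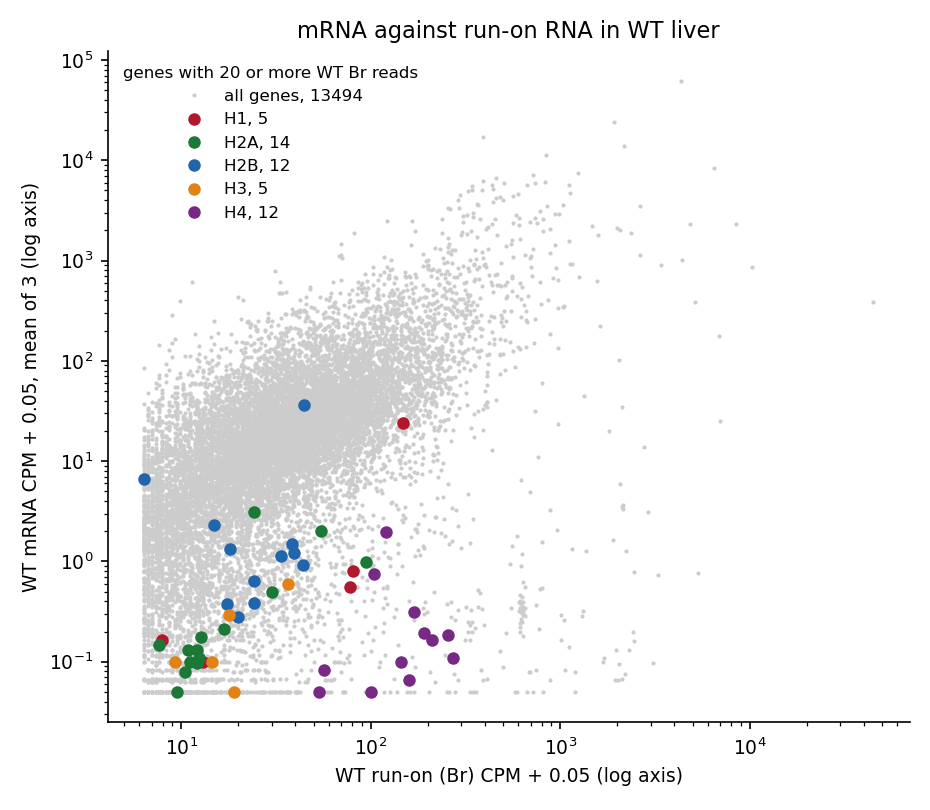
Each point is a gene with at least 20 WT run-on reads; the x axis is WT run-on CPM and the y axis the mean WT mRNA CPM of 3 libraries, both plus 0.05 on log axes. H4 genes (purple) lie below 2 CPM in mRNA although they reach 271 CPM in the run-on, and Hist1h2bc and Hist1h1c lie within the cloud of all genes (grey).

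The KO was compared with WT in mRNA to ask which histone genes differed without Setd8. Scaled values of at least 10 in at least 3 libraries were required, and 23 of the 57 genes passed. Of these 23, 10 reached that value in fewer than 3 WT libraries, so their passing depended on KO libraries, and the counts below describe them without serving as support. With limma on log2(value + 1) and a Benjamini-Hochberg adjusted p under 0.05, Hist1h1c was the 1 gene called higher and 0 were called lower; 1.35% of all 16813 genes tested were called higher and 1.36% lower. The median fitted change of the 23 genes was 0.77 on the log2 scale, against 0.00 over all genes. KO libraries lay wholly above WT in 10 of the 23 genes (13.2% of all genes) and wholly below in 1 (12.8%). An unadjusted limma p under 0.05 was reached by 11 of the 23, against 20.0% of all genes, and of the lower genes by Hist1h2bj alone.

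Hist1h1c encodes the linker histone H1.2, one of the common somatic H1 proteins. Its scaled values were 470, 476 and 649 in WT and 3757, 2680 and 1749 in KO. Every KO library was above every WT library, and the KO libraries themselves spread widely. The fitted change was 2.31 on the log2 scale (SE 0.29, limma adjusted p = 0.0111), which is 4.94-fold. Hist1h1c alone was 23.9% to 33.6% of the histone mRNA in WT libraries and 42.8% to 63.8% in KO libraries. The call was lost without WT replicate 2 (log2 2.23, limma adjusted p = 0.0623) and without KO replicate 2 (log2 2.28, limma adjusted p = 0.0697).

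The other H1 genes with a test moved the same way without being called. Hist1h1d, for H1.3, had 14, 11 and 7 in WT and 44, 53 and 35 in KO (log2 1.97, SE 0.44, limma adjusted p = 0.0576). Hist1h1e, for H1.4, had 11, 11 and 30 in WT and 50, 46 and 35 in KO (log2 1.42, SE 0.49, limma adjusted p = 0.158). For both genes the groups did not overlap. Hist1h1b, for H1.5, was too low to be tested: its values were 1, 2 and 0 in WT and 5, 6 and 4 in KO. Hist1h1a had 2, 1 and 0 against 3, 1 and 0, and the testis H1 gene Hist1h1t had 1, 6 and 0 against 2, 1 and 1. H1 genes share little sequence, at most 32.0% of 50-base words with any other gene, though Hist1h1e shares exon bases with Hist1h2be on its strand.

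Of the H2B genes, 11 were tested and 0 were called with limma (1.35% of all genes were higher and 1.36% lower). An unadjusted limma p under 0.05 was reached by 6 (20.0% of all genes), the lower gene Hist1h2bj among them. A fitted change above 0 was found for 10, against 8437 of all 16813 genes. Of these, Hist1h2bf, Hist1h2bk and Hist1h2br reached the filter value in fewer than 3 WT libraries, so their passing depended on KO libraries. Hist1h2bq had 27, 25 and 23 in WT and 58, 106 and 78 in KO (log2 1.61, SE 0.35, limma adjusted p = 0.0513). It was on the other side of the threshold with TMM scaling (adjusted p = 0.0458), edgeR (0.0496) and DESeq2 (0.00171) on re-estimated reads. TMM scaling also changed the calls over all genes from 227 higher and 228 lower to 294 and 177. Hist1h2bq shares 97.3% of its 50-base words with other genes, so its values are uncertain as those of a single gene. Hist1h2bf had 11, 7 and 3 against 44, 31 and 18 (log2 2.05, SE 0.62, limma adjusted p = 0.12). Hist1h2bc, the histone gene with the highest WT mRNA per kilobase of transcript (726, against 374 for Hist1h2ba and 341 for Hist1h1c), had 436, 691 and 1389 in WT and 949, 1432 and 1388 in KO. Its groups overlapped through WT replicate 3 (log2 0.72, SE 0.40, limma adjusted p = 0.36). The remaining abundant H2B genes, Hist1h2ba, Hist2h2be, Hist1h2be and Hist1h2bb, had fitted changes of 0.67, 0.77, 1.00 and 1.22 and none passed. Hist1h2bj was the exception in direction, with 21, 21 and 31 in WT and 9, 9 and 4 in KO (log2 -1.65, SE 0.55, limma adjusted p = 0.147).

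**Figure D3:**
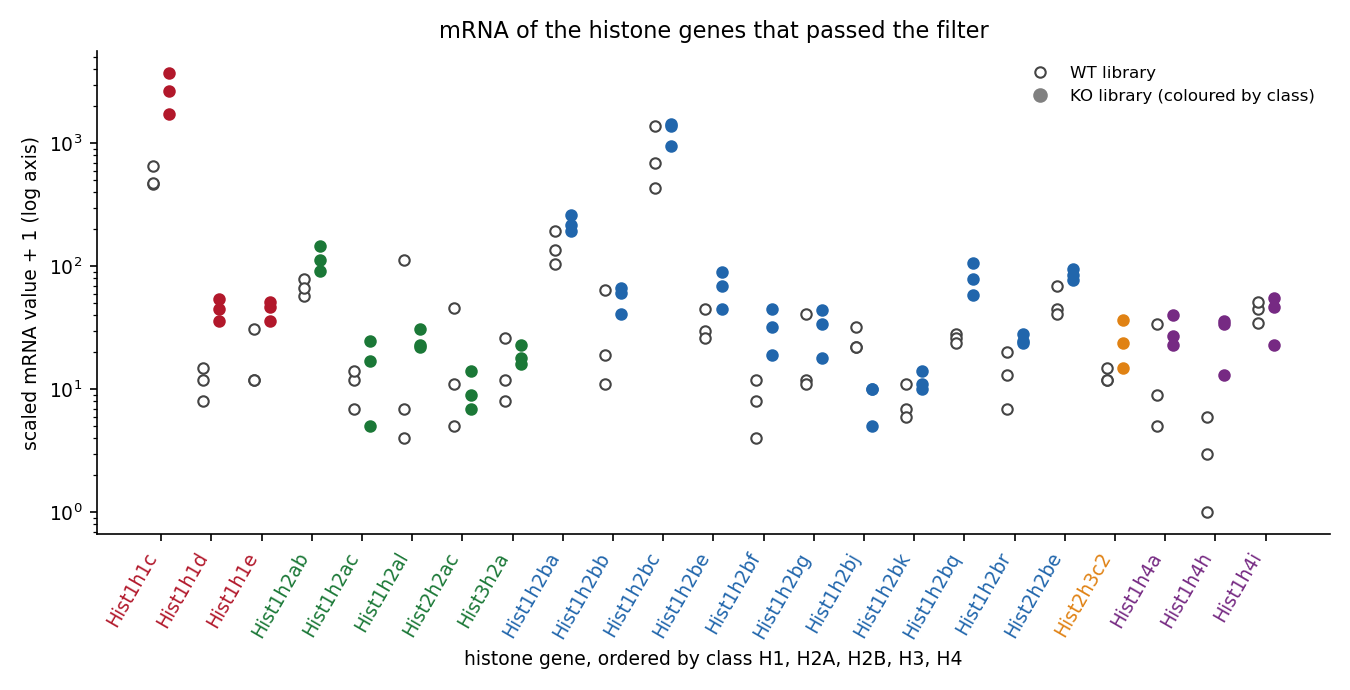
Each column is one of the 23 histone genes that passed the filter, with 3 WT libraries (open circles) and 3 KO libraries (filled, coloured by class) as scaled mRNA value plus 1 on a log axis. Hist1h1c shows the clearest separation, at 470 to 649 in WT and 1749 to 3757 in KO, and Hist1h2bj is the gene whose KO points all lie below WT.

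H2A, H3 and H4 genes were mostly too low in poly(A) mRNA to be tested. Of 18 H2A genes with a row, 5 were tested, and Hist1h2ab led them per kilobase with 56, 78 and 66 in WT and 147, 111 and 90 in KO (log2 0.77, SE 0.29, limma adjusted p = 0.196). Hist2h2ac had 4, 45 and 10 against 13, 8 and 6 (log2 -0.51, SE 0.87), a spread set by 1 WT library. The 1 tested H3 gene, Hist2h3c2, had 11, 11 and 14 against 23, 36 and 14 (log2 0.87, SE 0.51). Among 12 H4 genes, Hist1h4h had the largest fitted change of all tested histone genes, from 5, 2 and 0 in WT to 33, 35 and 12 in KO (log2 3.26, SE 0.88, limma adjusted p = 0.0922). It reached the filter value of 10 in every KO library and in no WT library, so it was tested only because KO was high. Its rank and its calls in other fits therefore describe it without serving as support. Hist1h4i had 34, 44 and 50 against 46, 54 and 22 (log2 -0.14, SE 0.42). The 34 genes that were not tested had means of at most 7.17 over the 6 libraries, and 4 of them were at 0 in all 6.

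The number of called histone genes depended on the libraries and the tool. Without WT replicate 3, 7 histone genes were called higher with limma (4.74% of all genes were higher and 5.17% lower): Hist1h1c, Hist1h1d, Hist1h1e, Hist1h2bb, Hist1h2bc, Hist1h2bq and Hist1h4h. DESeq2 on re-estimated reads called 5 (5.16% of all genes were higher and 5.39% lower): Hist1h1c, Hist1h1d, Hist1h2bf, Hist1h2bq and Hist1h4h. With edgeR on the same reads 2 were called, Hist1h1c and Hist1h2bq (1.65% of all genes were higher and 1.39% lower). Without WT replicate 2, or without KO replicate 2, 0 were called with limma. No fit called a histone gene lower.

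In the run-on, 49 histone genes had at least 20 reads over both libraries. Their log2 ratios of KO to WT, scaled to library size and centred on the median gene, had a median of -0.13. At least 2-fold higher were 2 genes (7.34% of all 15449 genes at this depth) and at least 2-fold lower were 3 (6.77%), so neither count exceeded the share of all genes. The classes differed in their medians: 0.60 for 6 H1 genes, 0.28 for 5 H3, -0.02 for 12 H4, -0.41 for 14 H2A and -0.43 for 12 H2B genes. H1 reads were at 330 CPM in WT (310 to 351) and 572 in KO (542 to 604), while H2A reads were 323 (304 to 344) and 246 (227 to 267) and H2B reads 330 (311 to 351) and 258 (237 to 279). There is no replicate check on these ratios, and many H2A and H2B genes share reads: 16 of 20 H2A and 8 of 19 H2B genes share at least 50% of their words with another gene.

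The H1 genes Hist1h1b, Hist1h1c, Hist1h1d and Hist1h1e were higher in the KO run-on beyond counting error. Hist1h1b had 6 reads in WT and 64 in KO, a log2 ratio of 3.76 (95% counting interval 2.66 to 5.36). Hist1h1d had 246 and 415 reads (1.20, 0.97 to 1.43), Hist1h1c 468 and 545 (0.67, 0.49 to 0.85) and Hist1h1e 255 and 271 (0.53, 0.28 to 0.79). The other H1 genes did not share this: Hist1h1a, the one without AAACACA in its promoter, had 41 and 25 reads (-0.26, -1.05 to 0.48), and Hist1h1t, which has it, had 25 and 6 (-1.53, -3.19 to -0.29).

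The 12 H4 genes with a count row carried the most run-on reads and mostly differed little between genotypes. Their interval lay above 0 for Hist1h4f (0.49) and below 0 for Hist1h4b and Hist1h4d. Hist4h4, an H4 gene without a count row, had the highest WT run-on RPKM of the histone genes. Its RPKM was 1119 in WT and 501.5 in KO (log2 -1.15 on RPKM plus 0.5), so this H4 gene was past 2-fold lower. Hist1h4c had 855 reads in WT and 627 in KO, a log2 ratio of 0.00 (-0.15 to 0.15). Hist1h4h, with the largest fitted change in mRNA, had 661 and 499 reads (0.04, -0.13 to 0.21). Hist1h4d had 804 and 484 (-0.29, -0.45 to -0.12), Hist1h4m 603 and 429 (-0.04, -0.23 to 0.14), Hist2h4 534 and 349 (-0.17, -0.37 to 0.03) and Hist1h4n 502 and 340 (-0.12, -0.32 to 0.09). Hist1h4b was set apart, with 168 and 46 reads (-1.41, -1.93 to -0.94). It shares exon bases with a gene on the opposite strand and 75.9% of its words with other genes. Hist1h4m (89.8%) and Hist1h4n (85.6%) share even more of their words, so their ratios are also uncertain as those of single genes. The intervals of Hist1h4c and Hist1h4h allow changes of at most 0.21 on the log2 scale from counting error alone.

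**Figure D4:**
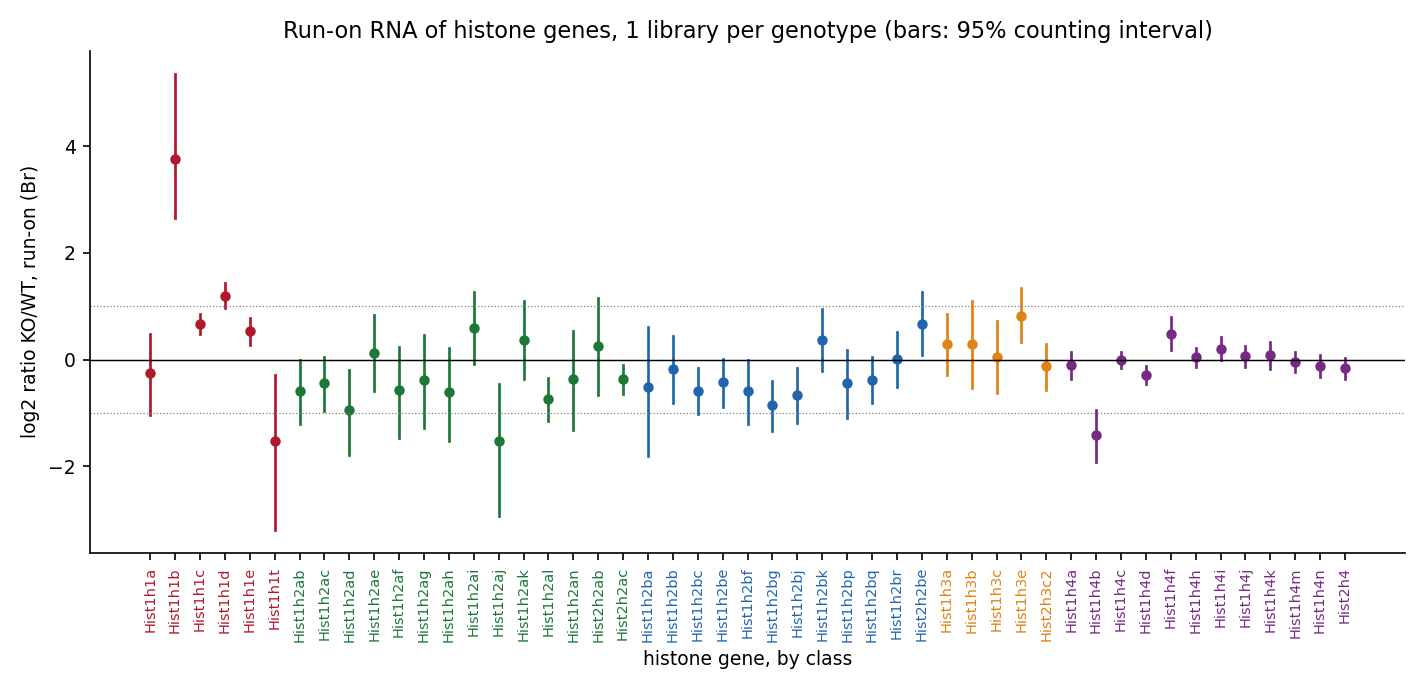
Points give the log2 ratio of KO to WT in the run-on for 49 histone genes by class, and bars the 95% counting interval; dotted lines mark 2-fold. Hist1h1b at 3.76 and Hist1h1d at 1.20 lie above the upper line, H4 genes other than Hist1h4b lie between -0.29 and 0.49, and most H2A and H2B genes lie below 0.

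Among the H2A and H2B genes the run-on ratios were mostly negative, while 4 of 5 H3 genes were above 0. Of 26 H2A and H2B genes at this depth, the interval lay below 0 for 9 and above 0 for Hist2h2be alone (47 and 55 reads, 0.67, 0.08 to 1.27). How often such intervals exclude 0 over all genes was not determined. Counts of this kind therefore do not set a histone class apart from other genes. Hist1h2aj was past 2-fold, with 33 and 8 reads (-1.53, -2.92 to -0.46), but it is a pseudogene that shares 93.1% of its words. Hist1h2bg had 138 and 56 reads (-0.85, -1.33 to -0.40), Hist1h2bc 141 and 69 (-0.58, -1.02 to -0.16) and the pseudogene Hist1h2al 173 and 76 (-0.74, -1.15 to -0.34). Hist1h3e was the H3 gene with an interval above 0, at 60 and 78 reads (0.82, 0.32 to 1.33). In the authors' RPKM table, 12 histone genes appear that have no count row. Their run-on log2 ratios, on RPKM plus 0.5, ran from -1.15 for Hist4h4 (1119 in WT and 501.5 in KO) to 0.64 for Hist1h2bn.

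EU labelling gave less depth for these genes. Only 15 had at least 20 reads over both libraries, and their median log2 ratio was 0.12. At least 2-fold higher were 4 (24.9% of all 15131 genes at this depth) and at least 2-fold lower were 2 (22.9%), counts that do not set the histone genes apart from other genes. Hist1h1e had 310 reads in WT and 161 in KO (0.03, -0.26 to 0.31), Hist1h1c 211 and 100 (-0.10, -0.46 to 0.24) and Hist1h1d 54 and 49 (0.83, 0.24 to 1.42). For Hist1h1c the EU interval spans 0 and lies below its run-on interval, without replicates of either method. Hist1h2be had 17 and 43 reads (2.29, 1.47 to 3.21) and Hist2h2be 38 and 40 (1.04, 0.37 to 1.72). Hist1h4d had 43 reads in WT and 0 in KO, at least 7.39-fold lower against a floor of 3 reads, and Hist2h4 had 38 and 0, at least 6.53-fold lower. With these genes at their bounds the median was again 0.12. No histone gene was past 2-fold the same way in EU and in the run-on where each method had at least 20 reads.

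Outside H1, the mRNA and run-on differences mostly had opposite signs. Of the 22 genes with a tested mRNA and at least 20 run-on reads, 12 (54.5%) were higher in mRNA and lower in the run-on, against 20.5% of 13452 genes of all kinds, and 7 were higher in both. Hist1h1c, Hist1h1d and Hist1h1e were 3 of those 7. Of the 12, no gene was called in mRNA. The run-on intervals of Hist1h2ab, Hist1h2al, Hist1h2bc, Hist1h2bf and Hist1h2bg lay below 0, and those of the rest of the 12 spanned 0. The pseudogene Hist1h2al counts as higher in mRNA by its fitted change (log2 0.77, SE 1.13). Its mean value was 40.3 in WT and 24.3 in KO. Hist1h2bf was higher by 2.05 in mRNA (not called) and lower in the run-on, at 76 and 37 reads (-0.58, -1.20 to -0.01). Hist1h2bq was higher by 1.61 in mRNA (not called) with 124 and 70 run-on reads (-0.37, -0.82 to 0.06). Hist1h2bj was lower by both measures, with a run-on ratio of -0.66 (-1.19 to -0.17). Of the 23 genes tested in mRNA, 10 passed the filter only with their KO libraries, which favours a higher mRNA ratio among those 10. Hist1h4h and Hist1h2bf are among the 10.

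**Figure D5:**
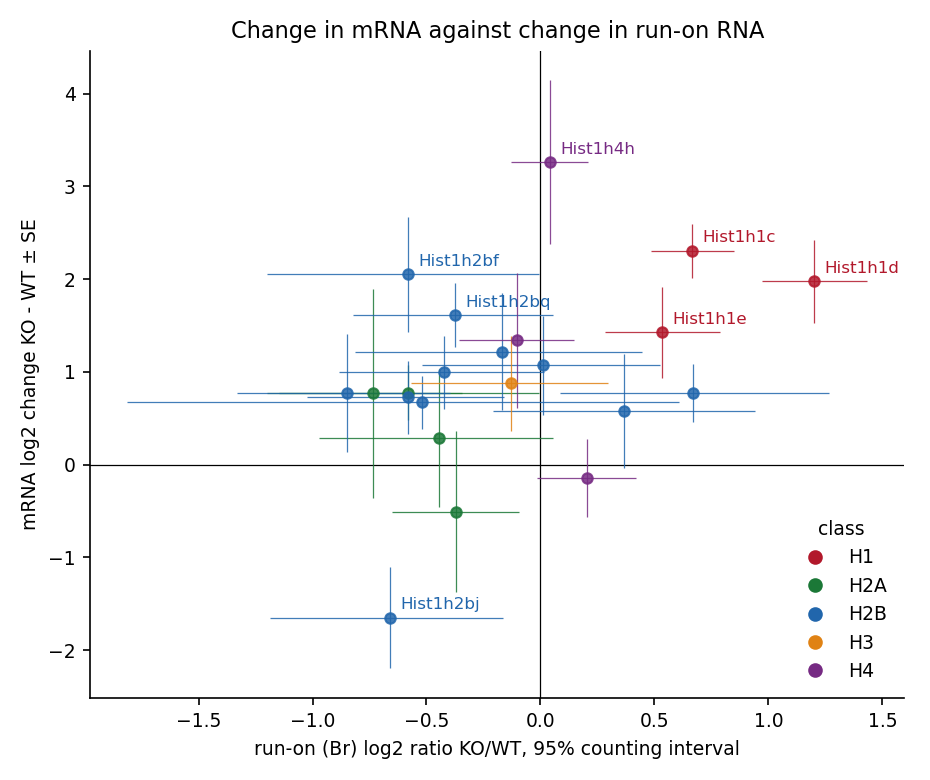
The x axis is the run-on log2 ratio of KO to WT with its 95% counting interval (1 library per genotype) and the y axis the fitted mRNA log2 change with its SE (3 libraries per genotype), for 22 histone genes coloured by class. The tested H1 genes stand at the upper right, Hist1h4h at 3.26 on the y axis with a run-on ratio of 0.04, and 12 genes at the upper left.

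The factors that make and process histone mRNA differed little in mRNA. Of 20 genes for histone pre-mRNA processing and the histone locus body, all tested, the median change was 0.00. With limma 0 were called higher (1.35% of all genes) and 1 lower (1.36%). Both edgeR and DESeq2 called 0 higher and 1 lower, and limma without WT replicate 3 called 1 higher and 1 lower. KO lay wholly above WT in 1 (13.2% of all genes) and wholly below in 3 (12.8%). The gene called lower was Snrpd3, an Sm protein of spliceosomal snRNPs and of the U7 snRNP. It had 1048, 1018 and 1933 in WT and 390, 481 and 504 in KO (log2 -1.48, limma adjusted p = 0.0354). That call was kept among the left-out libraries only without WT replicate 3 (limma adjusted p = 0.0114); the others gave 0.0562 to 0.163. Slbp, whose protein binds the stem-loop, had 359, 430 and 384 in WT and 459, 277 and 388 in KO (log2 -0.09, limma adjusted p = 0.88). In nascent RNA Slbp had 350 and 149 run-on reads (log2 -0.78) and 344 and 62 EU reads (-1.49). Npat, the activator that concentrates at histone genes, had 76, 77 and 132 against 87, 138 and 168 in mRNA (log2 0.46, limma adjusted p = 0.519) and 83 and 62 run-on reads (0.03).

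Genes of S phase and of histone handling were examined beside the histone genes. Of 30 genes for S phase entry and DNA synthesis, 29 were tested, and the median change was 0.27. With limma 1 was called higher (1.35% of all genes) and 0 lower (1.36%). An unadjusted limma p under 0.05 was reached by 7 (20.0% of all genes), and KO lay wholly above WT in 5 (13.2%). Called higher were 1 with edgeR (1.65%), 2 with DESeq2 (5.16%) and 2 with limma without WT replicate 3 (4.74%). The called gene was Ccna2, the S phase cyclin A2, with 27, 17 and 14 in WT and 139, 176 and 51 in KO (log2 2.47, limma adjusted p = 0.0491), a call lost without WT replicate 1 or 2 or KO replicate 1 or 2 (0.0655 to 0.23). Of 20 histone chaperone genes 0 were called with limma (3 with an unadjusted p under 0.05, 0 with edgeR, 1 lower with DESeq2). Of 10 tested variant histone genes with polyadenylated mRNAs 0 were called (1 with an unadjusted p under 0.05, 0 with edgeR or DESeq2), and their median was -0.06. Of 5 tested genes within or beside the large cluster 0 were called (1 with an unadjusted p under 0.05, 0 with edgeR, 1 higher with DESeq2).

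Markers of some other liver cells were higher in KO. All 10 macrophage and Kupffer cell markers, whose sums are given above, had a fitted change above 0, 9 had an unadjusted p under 0.05, and none was at 0 in any library. Called higher were 2 with limma (1.35% of all genes), 2 with edgeR (1.65%), 8 with DESeq2 (5.16%) and 5 with limma without WT replicate 3 (4.74%). The 6 stellate cell and fibroblast markers summed to 2291 to 3445 in WT and 4452 to 5997 in KO, with 1 called higher with limma, 1 with edgeR, 2 with DESeq2 and 2 with limma without WT replicate 3. The 6 neutrophil markers summed to 23 to 26 and 34 to 92, with 0 of 2 tested called by these fits and Ly6g, a defining marker, at 0 in 3 libraries. The groups overlapped for the sums of 8 lymphocyte markers (113 to 205 and 151 to 276), 8 erythroid markers (23617 to 35763 and 25040 to 45961) and 5 endothelial markers (5390 to 5711 and 5421 to 6073), with 0 called with limma or edgeR. Of the 5 endothelial markers, 1 was called higher with DESeq2 and 1 with limma without WT replicate 3. Among these 5, KO lay wholly above WT in 2 (13.2% of all genes) and wholly below in 0, and 3 had a fitted change above 0. The 8 hepatocyte markers summed to at least 1838655 in every library. The part of these cells in the histone values was not tested either. Setd8 itself had 593, 615 and 1076 in WT and 1199, 1040 and 1075 in KO (log2 0.59, SE 0.25, limma adjusted p = 0.244), and without WT replicate 3 it was called higher in KO (log2 0.87, limma adjusted p = 0.0198). This gene total holds exons outside the floxed one and does not check the labels.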

How the data were processed

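Per the submitters' processing notes the authors scaled mRNA reads of the 6 libraries with DESeq; the deposited values are whole numbers and are treated as a score, not as counts. Gene-level counts were deposited for the 4 nascent libraries. The Br values, all even, were divided by 2, which leaves 3156055 WT and 2317840 KO reads; EU has 10833287 and 5583983. The authors also deposited RPKM for these libraries. Those notes also name TopHat2, Cufflinks and Bowtie2, with mm9 as genome; no counter or annotation was given in the sources used here. The 24 chromatin samples were not analysed here. Of the gene IDs, 32860 matched a GENCODE M21 symbol.

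mRNA was tested with limma 3.58.1 (R 4.3.3), trend and robust, on log2(value + 1). Reads re-estimated from the steps between scaled values, 15636343 to 27108677 per library, served edgeR 4.0.16 and DESeq2 1.42.0 as alternatives. No source says that replicates were separate animals, so a p-value measures spread between libraries, which may be technical. Nascent ratios used 0.5 added reads; intervals are 95% Clopper-Pearson, and reads without molecular identifiers are not independent molecules. Other alternatives were pseudocounts, filters, scaling, a replicate block, left-out libraries and read minimums. Tested on simulated data over 16518 genes, limma found 44 of 100 genes with a 4-fold change, 5 of 98 with a 2-fold change, and made 4 false calls.

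Named genes were those called, the 8 highest in mRNA, the 4 largest fitted rises and up to 4 falls, the 8 with most nascent reads, and, of other lists, called genes, Slbp and Npat; others named beside them illustrate their class and were chosen after their values were seen. The histone genes and lists were chosen with earlier results of these data known.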

Additional observations from a re-analysis of the deposited data

How the results depend on the processing

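The direction of Hist1h1c was the same in every fit run, with log2 changes from 2.04 to 2.59. Its call was lost only without WT replicate 2 or KO replicate 2. The count of histone genes called higher was 2 with a pseudocount of 10, with a minimum value of 50, with TMM scaling, with edgeR and with the replicate block, and 5 with DESeq2; leaving out 1 library gave 0 to 7, and 0 were called lower throughout. Calls over all genes were 500 higher and 514 lower with the replicate block and 867 and 906 with DESeq2; leaving out 1 library gave 13 to 797 higher and 15 to 869 lower. Same-numbered WT and KO libraries correlated in their deviations at 0.409, -0.242 and 0.198, so the replicate block rests on shared numbers only, and not every library correlated best with its own number.

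In EU, a minimum of 10 reads gave 8 genes at least 2-fold higher and 7 lower, and a minimum of 50 gave 2 and 0. With RPKM, over the genes with a count row, the EU median was 0.235. In the run-on, 1 gene was at least 2-fold lower with a minimum of 50 reads. With RPKM it was also 1 among the genes with a count row. Hist4h4, which has no count row, was past 2-fold lower with RPKM as well (log2 -1.15). Without genes that share at least 50% of their words or overlap another gene, 23 remained, holding 60.5 and 58.7 CPM in EU (WT and KO) and 1770 and 1920 in the run-on; KO was then below WT in EU within counting error, and above WT in the run-on beyond it. Depth limits the EU ratios, since 15 genes reached 20 reads, and single libraries leave the nascent ratios without a replicate check.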
